A study of Mus musculus with 18 samples.

Results

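The genes described here are 9 transcription factors, the T-box genes Tbx1, Tbx2, Tbx3, Tbx4, Tbx5, Tbx15, Tbx18 and Tbx20 and the homeobox gene Pitx1, out of 21959 genes listed for mouse embryonic fibroblasts (MEFs) and 51826 listed for liver. They were chosen by name, and chosen on the MEF counts themselves, in which Tbx2 was lower in RepB-/- than in WT cells while Tbx4 differed little. Each of the 9 symbols matched a single row in both tables. Because the MEF comparison of the genotypes picked these genes, their MEF values are given as a description without a test, and tests of them are given for liver, which the choice did not use.

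The study removed repeat B from Xist, the long non-coding RNA that silences an X chromosome in female cells, and compared homozygous RepB-/- mice with WT mice. The mice were made by CRISPR/Cas9 injection of zygotes, with ICR mice as the stock. Messenger RNA was sequenced from primary MEFs and from liver, with 3 libraries of each genotype in each tissue. The labels give the genotype only as the letter B or W in the library titles, which were read as RepB-/- and WT. The labels give tail as the tissue of the MEF libraries. The age and sex of the liver donors, and whether the libraries of a group came from separate animals, are not given in the sources used here, so p-values cover the spread between these libraries, which may be technical. Sex is read below from Xist and Y-linked counts.

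T-box proteins share a DNA-binding domain, the T-box, and act as activators or repressors that pattern the embryo. Tbx2 and Tbx3 are repressors that act in limb, heart and mammary development and hold back senescence. Tbx5 acts in the forelimb and the heart, whereas Tbx4 and Pitx1 act in the hindlimb, and Tbx4 also in lung mesenchyme. Tbx15 acts in the dermis and skeleton, and Tbx18 in the somites, the sinus node and the epicardium. Tbx1 acts in the pharyngeal arches and Tbx20 in the heart. Fibroblasts keep part of the positional expression of such genes in culture.

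All 9 genes lie on autosomes. In the GRCm38 coordinates of the liver table, Tbx2 (chr11:85832551-85841948) and Tbx4 (chr11:85886422-85916097) lie side by side on the plus strand, with 44.5 kb between them in the MEF table. Tbx3 (chr5:119670669-119684724) and Tbx5 (chr5:119832668-119885219) form a like pair, 148 kb apart. The others lie alone, Tbx15 at chr3:99240381-99354259, Tbx18 at chr9:87702800-87731260, Tbx20 at chr9:24718138-24774303, Pitx1 at chr13:55825051-55836192 and Tbx1 at chr16:18581713-18586969, the only span of the 9 that differed from the GENCODE vM21 annotation.

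Promoter sequences from RefSeq (GRCm38.p6; 250 bases before to 50 bases after a gene's start) were matched by symbol for 4 of the 9 genes, Tbx1, Tbx4, Tbx18 and Tbx20, and not for Tbx2, Tbx3, Tbx5, Tbx15 or Pitx1. Those of Tbx4 (chr11:85896515-85896814, plus strand), Tbx18 (chr9:87731211-87731510, minus strand) and Tbx20 (chr9:24774254-24774553, minus strand) are shown because Tbx4 and Tbx18 were read in MEFs and hardly at all in liver, and Tbx20 the other way round. The Tbx4 window lies inside the listed span of the gene and not at its start. CG dinucleotides are in capitals.
Tbx4: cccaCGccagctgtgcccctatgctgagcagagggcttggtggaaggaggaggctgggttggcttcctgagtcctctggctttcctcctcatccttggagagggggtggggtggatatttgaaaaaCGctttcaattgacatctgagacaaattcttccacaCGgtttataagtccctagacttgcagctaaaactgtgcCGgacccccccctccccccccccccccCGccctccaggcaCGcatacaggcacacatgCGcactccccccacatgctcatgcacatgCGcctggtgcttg
Tbx18: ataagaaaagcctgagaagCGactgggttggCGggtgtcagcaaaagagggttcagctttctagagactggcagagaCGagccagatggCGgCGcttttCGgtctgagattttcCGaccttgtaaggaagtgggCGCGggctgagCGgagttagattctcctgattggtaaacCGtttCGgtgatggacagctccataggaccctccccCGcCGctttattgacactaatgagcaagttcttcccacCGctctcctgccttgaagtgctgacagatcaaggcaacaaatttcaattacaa
Tbx20: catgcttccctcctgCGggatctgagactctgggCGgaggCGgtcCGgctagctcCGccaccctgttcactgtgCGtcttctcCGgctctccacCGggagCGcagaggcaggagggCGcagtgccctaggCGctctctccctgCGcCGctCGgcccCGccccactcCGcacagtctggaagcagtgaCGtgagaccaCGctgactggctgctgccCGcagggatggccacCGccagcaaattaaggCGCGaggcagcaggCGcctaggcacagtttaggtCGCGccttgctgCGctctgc
The Tbx4 window held 8 CG dinucleotides, the Tbx18 window 15 and the Tbx20 window 26, and both windows of Tbx1 held 26 and 16. Over all 32851 promoter windows the median was 7, so the Tbx4 window was near the middle and the Tbx20 window had more CG than 83.1% of windows. The T-box binding core GGTGTGA (or TCACACC on the other strand) was found in 0 of the 5 windows of these genes and in 3.98% of all windows. The shorter core AGGTGT (or ACACCT), which overlaps it, was found in 1 of the 5 windows, of Tbx1, and in 13.7% of all windows.

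MEF libraries held 11540344 to 20587556 counts and liver libraries 37682201 to 51542709. The MEF table lists no Xist row, and its libraries held 0 to 4 counts of 4 Y-linked genes together. In liver, 5 libraries held 14494 to 26345 Xist counts and at most 1 count of 4 Y-linked genes together, whereas the library labelled RepB-/- replicate 2 held 4 Xist counts and 4342 Y-linked counts. By these counts that library reads as male and the other 5 as female, so sex and genotype are mixed in the liver fits that include it. The Xist counts are of the whole transcript and do not read the deletion. The replicate 1 livers of both genotypes stood apart from the other 4, with fetal liver genes (Afp, H19, Igf2, Gpc3 and Dlk1) summing to 5970 and 4753 CPM (counts scaled to library size) against 4.50 to 20.2. The tested values of Tbx2, Tbx3 and Tbx20 and the calls of the gene lists in liver are therefore given with and without these libraries. Cell identity matched the labels in both tissues. Hepatocyte genes (led by Alb) summed to between 143296 and 210102 CPM in liver, against at most 55.6 CPM in MEFs. Fibroblast genes (such as Fn1 and Col1a1) summed to between 20433 and 35315 CPM in MEFs. They separated the tissues less, at 1616 to 3828 CPM in liver, where Fn1 was the most abundant of them.

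In MEFs, Tbx2 was the gene with the largest genotype difference among those of the 9 that passed the count filter, Tbx3 was also lower in RepB-/-, and Tbx4, Tbx15 and Tbx18 differed by at most 0.23 on the log2 scale. The filter on low counts (filterByExpr in edgeR) was passed by 5 of the 9 genes, namely Tbx2, Tbx3, Tbx4, Tbx15 and Tbx18. Of these 5, 2 were lower in RepB-/- without overlap between the genotypes (Tbx2 and Tbx3), against 25.8% of all 13306 tested genes, and 2 were higher without overlap (Tbx4 and Tbx18), against 26.4%. Because this comparison chose the genes, nothing is read from these shares.

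The repressor Tbx2 had 28, 27 and 38 counts in the RepB-/- MEF libraries and 135, 84 and 107 in the WT libraries. Scaled by TMM-normalised library size, these were 1.43, 1.39 and 1.93 CPM against 10.8, 5.19 and 6.36 CPM. Every RepB-/- library was below every WT library, although the RepB-/- libraries were the deeper ones. The fitted log2 fold change, RepB-/- minus WT, was -2.21 (SE 0.29), which is 4.64-fold lower in RepB-/-. The WT libraries spread more than the RepB-/- libraries, at 7.46 ± 2.97 against 1.58 ± 0.30 CPM (SD, n = 3 each), with WT replicate 1 the highest. Without that library the log2 fold change was -1.86.

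Tbx3, the closest relative of Tbx2 among the 9 and likewise a repressor, had 216, 217 and 238 counts in RepB-/- and 341, 365 and 327 in WT. Its levels were 11.01, 11.2 and 12.1 CPM against 27.3, 22.6 and 19.4 CPM, again without overlap. The log2 fold change was -1.01 (SE 0.13), or 2.01-fold lower in RepB-/-.

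Tbx4, the hindlimb gene next to Tbx2, had 130, 120 and 118 counts in RepB-/- and 54, 92 and 99 in WT. These were 6.63, 6.20 and 5.98 CPM against 4.33, 5.69 and 5.88 CPM. The ranges met without overlapping, and the gap between the lowest RepB-/- and the highest WT library was small beside the spread within WT. The log2 fold change was 0.23 (SE 0.18), and it was 0.12 without WT replicate 1, the shallowest MEF library. The set was chosen because Tbx2 was lower while Tbx4, its neighbour on chromosome 11, differed little.

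Tbx15 and Tbx18 are mesenchymal T-box genes. Tbx15 had 746, 817 and 742 counts in RepB-/- and 397, 621 and 648 in WT, which were 38.0, 42.2 and 37.6 CPM against 31.8, 38.4 and 38.5 CPM. The genotypes overlapped, and the log2 fold change was 0.11 (SE 0.10). Tbx18 had 275, 309 and 339 counts in RepB-/- and 169, 222 and 221 in WT, which were 14.0, 16.0 and 17.2 CPM against 13.6, 13.7 and 13.1 CPM. The RepB-/- libraries lay just above the WT libraries, with a log2 fold change of 0.22 (SE 0.12).

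**Figure D1:**
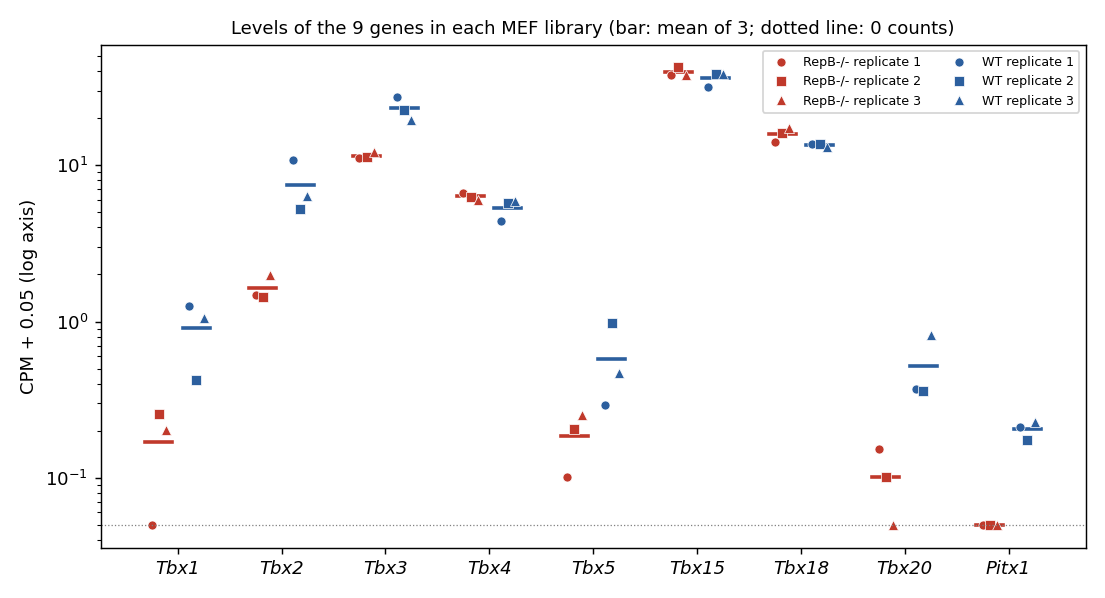
Level of each of the 9 genes in every MEF library, as TMM-scaled CPM plus 0.05 on a log axis, with RepB-/- in red, WT in blue, a symbol for each replicate and a bar at the mean of 3 libraries. Tbx2 and Tbx3 lie lower in all RepB-/- libraries, Tbx4, Tbx15 and Tbx18 lie at about the same level in both genotypes, and Tbx1, Tbx5, Tbx20 and Pitx1 lie lowest.

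The other 4 genes had few counts in MEFs and did not pass the filter. Tbx1, the pharyngeal arch gene, had 0, 4 and 3 counts in RepB-/- and 15, 6 and 17 in WT. Tbx5, the forelimb gene, had 1, 3 and 4 against 3, 15 and 7. Tbx20, the heart gene, had 2, 1 and 0 against 4, 5 and 13. Pitx1, the hindlimb homeobox gene, had 0 counts in all RepB-/- libraries and 2, 2 and 3 in WT, so both genotypes were at or under the 3 counts that are treated as the floor and no ratio is given.

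The depth-scaled ratio of summed counts, RepB-/- to WT, was 0.14 for Tbx1 (95% exact interval 0.054 to 0.32), 0.25 for Tbx5 (0.097 to 0.57) and 0.11 for Tbx20 (0.020 to 0.35). These intervals cover counting error only. In CPM, RepB-/- lay below WT without overlap for all 4 genes, as it did for 22.5% of the 6024 genes that had a count and did not pass the filter. The WT libraries held more genes at low counts than the deeper RepB-/- libraries, with 17191 to 17664 genes with a count against 15453 to 15545, and 5017 to 5541 genes with 1 to 20 counts against 3393 to 3523. Among tested genes with a mean under 1 CPM, 315 of 870 were lower in RepB-/- at an adjusted p under 0.05 in edgeR's quasi-likelihood test, and 17 were higher. The part of this excess in the low values of Tbx1, Tbx5, Tbx20 and Pitx1 was not tested. Tbx2, at 27 or more counts in every library, and Tbx3, at 216 or more, lie above 20 counts. The part of the low-count excess in their values was not tested either. Genes with a mean of 1 to 10 CPM, as Tbx2 and Tbx4 have, were lower by this test in 848 and higher in 388 of 3482 cases, and genes above 10 CPM, as Tbx3, Tbx15 and Tbx18 are, in 1458 and 2176 of 8954.

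Levels can be ordered between genes by FPKM, the deposited values scaled by transcript length and library size. In WT MEFs, Tbx15 was highest with 10.03 ± 0.74 FPKM (SD, n = 3), followed by Tbx3 with 3.64 ± 0.74, Tbx18 with 2.97 ± 0.12, Tbx2 with 2.16 ± 0.94 and Tbx4 with 1.61 ± 0.21. The ranges of Tbx3 and Tbx18, of Tbx18 and Tbx2, and of Tbx2 and Tbx4 overlapped. Within libraries, Tbx3 lay above Tbx18 in all 3 WT libraries. Tbx18 and Tbx2, and Tbx2 and Tbx4, changed order between WT libraries. In RepB-/- MEFs the order was Tbx15 with 10.1 ± 0.71 FPKM, Tbx18 with 3.20 ± 0.33, Tbx4 with 1.77 ± 0.090, Tbx3 with 1.66 ± 0.079 and Tbx2 with 0.42 ± 0.078. Tbx4 and Tbx3 overlapped there, and Tbx2 lay below Tbx4 in all 3 RepB-/- libraries. Tbx1, Tbx5, Tbx20 and Pitx1 had mean levels of at most 0.26 FPKM in either genotype.

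Among all tested MEF genes, those whose centred log2 CPM over the 6 libraries lay closest to that of Tbx2 were Mmel1, Nfkbid, Nova2, Pdzd7 and Chst8, with root mean square differences of 0.076 to 0.15. Those closest to Tbx4 were Plcb4, Nuak1, Lmf1, Dpp3 and Trib2, with differences of 0.029 to 0.035. With a prior count of 0.5 in place of 2 on the log scale, 3 of the 5 genes of Tbx2 and all 5 of Tbx4 were the same. A likeness over 6 libraries is a description of these libraries.

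The genes around Tbx2 and Tbx4 were not part of the choice and were tested in MEFs. The 5 tested genes within 500 kb were Bcas3, Brip1, Ints2, Med13 and Ppm1d, and 1 of them had an adjusted p under 0.05 by the same test. A gene that did so is called changed below, as were 39.1% of all tested MEF genes (19.7% lower and 19.4% higher in RepB-/-). Brip1, a DNA repair helicase, rose with a log2 fold change of 0.58 (SE 0.20, adjusted p = 0.033), opposite in sign to Tbx2. Bcas3, 6.49 kb from Tbx2, had a log2 fold change of 0.07 (SE 0.11, adjusted p = 0.65). Ints2, a subunit of the Integrator complex, had 0.15 (adjusted p = 0.19), Med13, a subunit of Mediator, had -0.23 (adjusted p = 0.070), and Ppm1d, a phosphatase of the p53 response, had -0.09 (adjusted p = 0.58). The gene model Gm11444, between Tbx2 and Tbx4, was not tested and had 0 counts in all RepB-/- libraries and 5, 1 and 8 in WT.

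**Figure D2:**
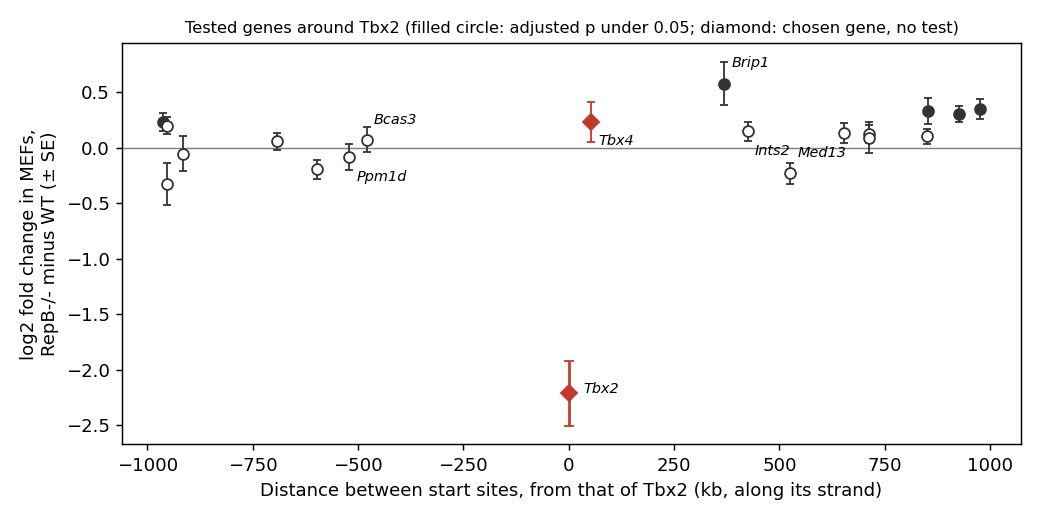
Log2 fold change in MEFs, RepB-/- minus WT, with its SE, for each tested gene within 1 Mb of Tbx2, against the distance of its start site from that of Tbx2 in kb. Tbx2 lies at -2.21, and every other gene shown lies between -0.32 and 0.58.

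Around Tbx3 and Tbx5 the tested gene within 500 kb was Rbm19, a ribosome biogenesis factor, which fell by 0.25 on the log2 scale (SE 0.09, adjusted p = 0.032). Over all 9 genes, 50 other genes within 500 kb were tested and 17 of them were called changed, 13 higher and 4 lower, or 34.0%, against 39.1% of all tested genes. None of the 6 called genes near Tbx1 was lower, and 3 of the 7 near Pitx1 were.

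Of the other T-box and Pitx genes, 3 of 10 passed the filter in MEFs and 1 was called changed. Eomes, a T-box gene of early mesoderm and of T cells, fell by 4.14 on the log2 scale (SE 0.67, adjusted p = 0.00036). It had 1, 1 and 2 counts in RepB-/- and 21, 28 and 10 in WT, within the range of low counts where WT libraries held more genes. Eomes passed the filter through its WT libraries alone. Such a gene can hardly be called higher in RepB-/-, so nothing is read from its call. Tbx6 had a log2 fold change of -1.12 (adjusted p = 0.056) and Mga, a large repressor with a T-box, of -0.01 (SE 0.08, adjusted p = 0.91) at 67.6 CPM in RepB-/- and 68.4 in WT. The median over the 3 was -1.12, beside 0.00 over all tested genes, and nothing is read from a median over 3 genes that include Eomes. Tbx21 was below the filter, with 0 counts in RepB-/- and 7, 6 and 10 in WT.

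Limb bud genes changed in both directions. Of 22 genes, 15 were tested, 4 were called higher and 5 lower in RepB-/-, with a median log2 fold change of -0.18. Over all tested genes, 19.4% were called higher and 19.7% lower, and the median was 0.00. On the log2 scale, Fgf10, a growth factor that limb T-box proteins activate, rose by 0.57 (SE 0.15, adjusted p = 0.0098), and Gli3, the hedgehog effector, rose by 0.46 (adjusted p = 0.0018). En1, a ventral limb gene, rose by 0.42 (adjusted p = 0.015) and Prrx1, a limb mesenchyme gene, by 0.35 (adjusted p = 0.0090). Lmx1b, the dorsal limb gene, fell by 2.47 (SE 0.61, adjusted p = 0.0062), at 1 to 8 counts in RepB-/- and 10 to 24 in WT. Like Eomes, Lmx1b passed the filter through WT libraries alone, and nothing is read from its call. Msx2 (-0.90, adjusted p = 0.013), the bone morphogenetic protein antagonist Grem1 (-0.83, adjusted p = 0.00011) and Hoxc11 (-0.49, adjusted p = 0.0048) also fell. With a fold change of at least 1.5 also required, 3 of the 9 remained called, all lower. The share of all tested genes at that threshold was not computed, so nothing is read from this direction.

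Of 11 genes of known T-box partners, 8 were tested, 5 were called lower and 1 higher in RepB-/-, with a median log2 fold change of -0.46. Over all tested genes, 19.7% were called lower and 19.4% higher, and the median was 0.00. Nothing is read from a count or median over so few genes that include Gata4. With at least 1.5-fold change, 3 of the 6 remained called, all lower, again without a share over all tested genes to set beside it. Gata4 and Gata6, zinc finger factors that bind with T-box proteins in the heart, fell, with log2 fold changes of -2.86 (SE 0.50, adjusted p = 0.00068) and -2.19 (SE 0.30, adjusted p = 0.00012). Gata4 had 3, 2 and 11 counts in RepB-/- and 28, 34 and 29 in WT, and Gata6 had 17, 17 and 15 against 59, 61 and 52. The RepB-/- counts of both lie in the range of low counts where WT libraries held more genes. Like Eomes, Gata4 passed the filter through WT libraries alone, and nothing is read from its call. The co-repressor genes Tle4 and Tle1 fell, with -1.62 (adjusted p = 0.00017) and -0.53 (adjusted p = 0.00025), and the histone deacetylase gene Hdac2 rose by 0.44 (adjusted p = 0.0012).

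Genes known to be regulated by T-box proteins were also mixed. Of 9 genes, 6 were tested, 1 was called higher and 2 lower, with a median log2 fold change of -0.31. Over all tested genes, 19.4% were called higher and 19.7% lower, and the median was 0.00. Cdkn1a, which encodes the cell cycle inhibitor p21 and is a known repression target of Tbx2, fell by 0.74 (SE 0.09, adjusted p = 4.6e-05), from 577 CPM in WT to 347 in RepB-/-. Ndrg1, another target that Tbx2 is known to repress, fell by 1.10 (SE 0.17, adjusted p = 0.00027). Fgf10, given above, is the gene that rose. Cdkn2a, also a locus of cell cycle inhibitors, had a log2 fold change of 0.02 (SE 0.11, adjusted p = 0.91), and the gap junction gene Gja1 had 0.16 (adjusted p = 0.23).

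**Figure D3:**
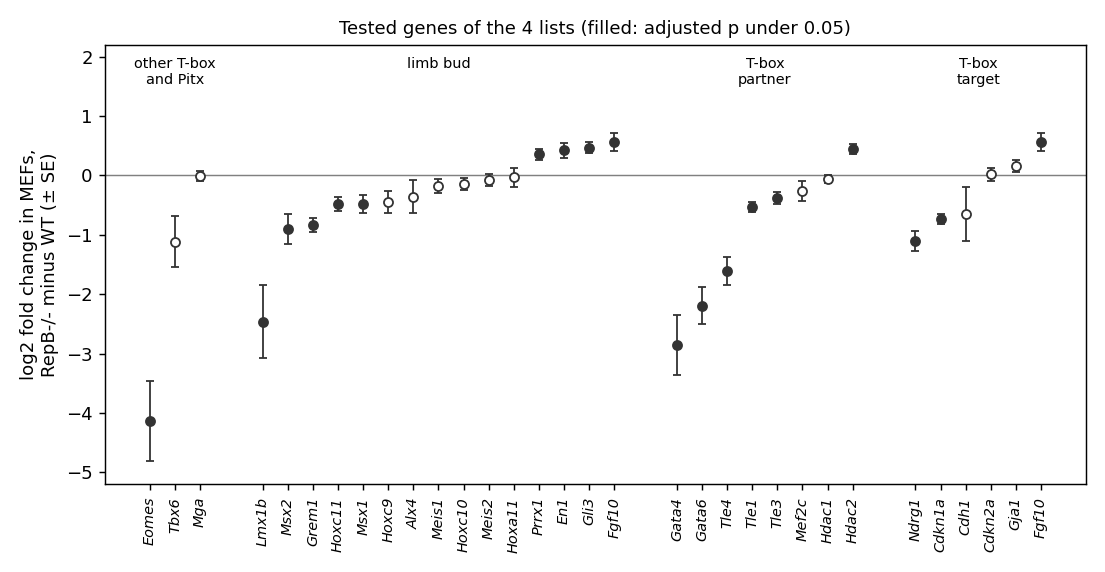
Log2 fold change in MEFs, RepB-/- minus WT, with its SE, of the tested genes in the 4 lists, where filled circles mark an adjusted p under 0.05. Eomes, Lmx1b, Gata4 and Gata6 lie lowest, between -4.14 and -2.19, and no gene lies above 0.57. Eomes, Lmx1b and Gata4 passed the count filter through WT libraries alone, so nothing is read from their direction.

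Sums of marker genes of other cells differed between the genotypes for most lists in the MEF libraries. The calls below stand beside 39.1% of all tested MEF genes called changed. Smooth muscle genes (Acta2, Tagln, Cnn1 and Myh11) summed to 1944 to 2364 CPM in RepB-/- and 2912 to 4410 in WT, with 3 of 4 called lower. Endothelial genes summed to 19.8 to 21.5 against 28.8 to 36.2 CPM (3 of 4 lower, 1 higher), mesothelial genes to 4.43 to 5.37 against 6.82 to 12.6 (1 tested of 4, Msln, lower), and skeletal muscle genes to 19.1 to 20.7 against 26.3 to 28.5. Of the 3 skeletal muscle genes tested, Myh3 fell by 0.76 on the log2 scale (adjusted p = 0.00011), whereas Myod1 had 0.39 (adjusted p = 0.33) and Myog 0.22 (adjusted p = 0.38). Higher in RepB-/- were leukocyte genes, at 103 to 133 against 38.5 to 55.2 CPM (of 4 tested, 2 higher and 1 lower), keratinocyte genes, at 5.12 to 11.5 against 3.13 to 4.76 (1 of 4 tested higher), cartilage genes, at 87.8 to 244 against 63.9 to 86.4 (2 of 4 higher), and fibroblast genes (5 of 10 higher, 1 lower). The leukocyte sum was mostly Lyz2 (means of 105 against 32.8 CPM), with Adgre1 also higher, Cd68 lower and Ptprc at an adjusted p of 0.51. The cartilage sum was led by Col2a1 (110 against 31.2 CPM). In the keratinocyte list, Epcam went the other way (log2 fold change -1.03, adjusted p = 0.067). Cardiac muscle genes overlapped, at 8.42 to 11.8 against 9.59 to 12.03 CPM, with 1 of 3 tested called lower (Tnnt2, log2 fold change -0.60, adjusted p = 0.028), and Nkx2-5 was at 0 to 2 counts in every library. The part of these shifts in the values of Tbx2, Tbx3 and the listed genes was not tested. In bulk samples, fewer cells of a type and less RNA per cell cannot be told apart.

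In liver, Tbx2, Tbx3 and Tbx20 passed the filter, and no difference between the genotypes was detected for any of them. Of these 3 genes, 0 passed an adjusted p of 0.05 in edgeR's quasi-likelihood test, 0 had an unadjusted p under 0.05, and DESeq2 called 0. The background was low, since 0.0373% of the 16080 tested liver genes were called, and the libraries varied more, with a biological coefficient of variation of 51.2% against 9.06% in MEFs. All 3 genes overlapped between the genotypes.

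Tbx2 had 482, 412 and 233 counts in RepB-/- livers and 547, 166 and 211 in WT livers, which were 9.52, 8.18 and 6.80 CPM against 12.2, 4.29 and 4.46 CPM. The replicate 1 livers were the highest of both genotypes. The log2 fold change was 0.23 (95% interval -0.87 to 1.32, adjusted p = 1.00). It was 0.78 (adjusted p = 0.45) in replicates 2 and 3 alone, which keep the library labelled RepB-/- replicate 2. Without that library it was 0.22.

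Tbx3, which acts in the growth of liver progenitors, had 489, 464 and 574 counts in RepB-/- and 607, 681 and 936 in WT, which were 9.66, 9.21 and 16.7 CPM against 13.5, 17.6 and 19.8 CPM. RepB-/- replicate 3 lay within the WT range and the other RepB-/- livers below it, and at each replicate number the RepB-/- liver was the lower. The log2 fold change was -0.52 (95% interval -1.24 to 0.20, adjusted p = 1.00), and with the replicate number as a block it was -0.55 (adjusted p = 0.74). It was -0.53 in replicates 2 and 3 alone and -0.37 without the library labelled RepB-/- replicate 2, with an adjusted p of at least 0.64 under every alternative. The Tbx3 estimate was negative in both tissues, whereas that of Tbx2 was negative in MEFs and positive in liver. Nothing is read from these signs, and the difference between the tissues was not tested because the MEF values chose the genes.

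Tbx20 had 195, 89 and 55 counts in RepB-/- and 156, 72 and 90 in WT, which were 3.85, 1.77 and 1.60 CPM against 3.48, 1.86 and 1.90 CPM. As for Tbx2, the replicate 1 livers were the highest of both genotypes. The log2 fold change was 0.00 (95% interval -1.21 to 1.20, adjusted p = 1.00), and it was -0.15 in replicates 2 and 3 alone and 0.18 without the library labelled RepB-/- replicate 2. The same replicate 1 livers were highest for smooth muscle genes, at 69.9 and 88.8 against 12.5 to 29.8 CPM in the other 4, and for mesothelial genes, at 10.01 and 8.16 against 0 to 4.91 CPM. The part of these genes and of the fetal genes in the levels of Tbx2 and Tbx20 was not tested.

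**Figure D4:**
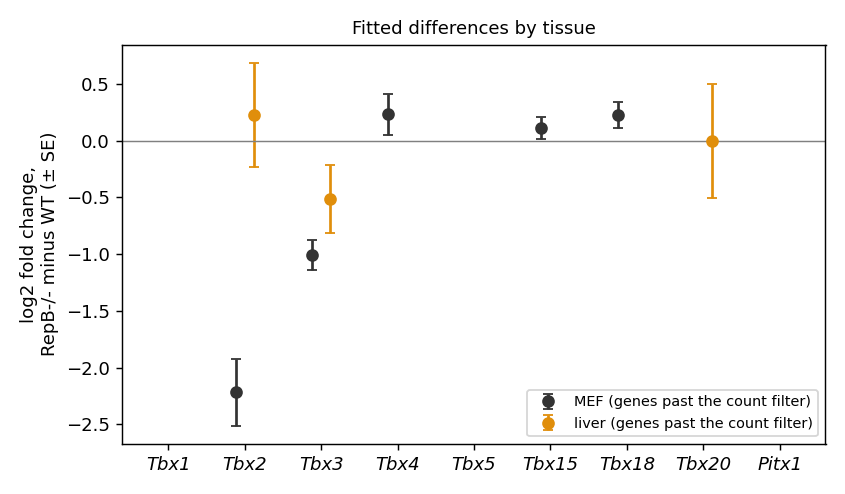
Fitted log2 fold change, RepB-/- minus WT, with its SE, for the 9 genes in MEFs (black) and liver (orange), where genes without a point did not pass the filter. In MEFs, Tbx2 lies at -2.21 and Tbx3 at -1.01, and in liver Tbx2, Tbx3 and Tbx20 lie at 0.23, -0.52 and 0.00 with wider errors.

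The other 6 genes were at or near 0 in liver and were not tested. Tbx4 had 10, 0 and 2 counts in RepB-/- and 6, 2 and 0 in WT. Tbx5 had 4, 0 and 0 counts in each genotype, Tbx15 had 2 counts in a single RepB-/- library, and Tbx18 had 0 counts in all 6 libraries, which allows up to 3 counts in a library, or 0.0875 CPM in the library with the smallest scaled size. Pitx1 had 6 counts in RepB-/- replicate 1 and 0 elsewhere. Tbx1 had 2, 6 and 10 counts in RepB-/- and 4, 0 and 0 in WT, and the genotypes overlapped.

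**Figure D5:**
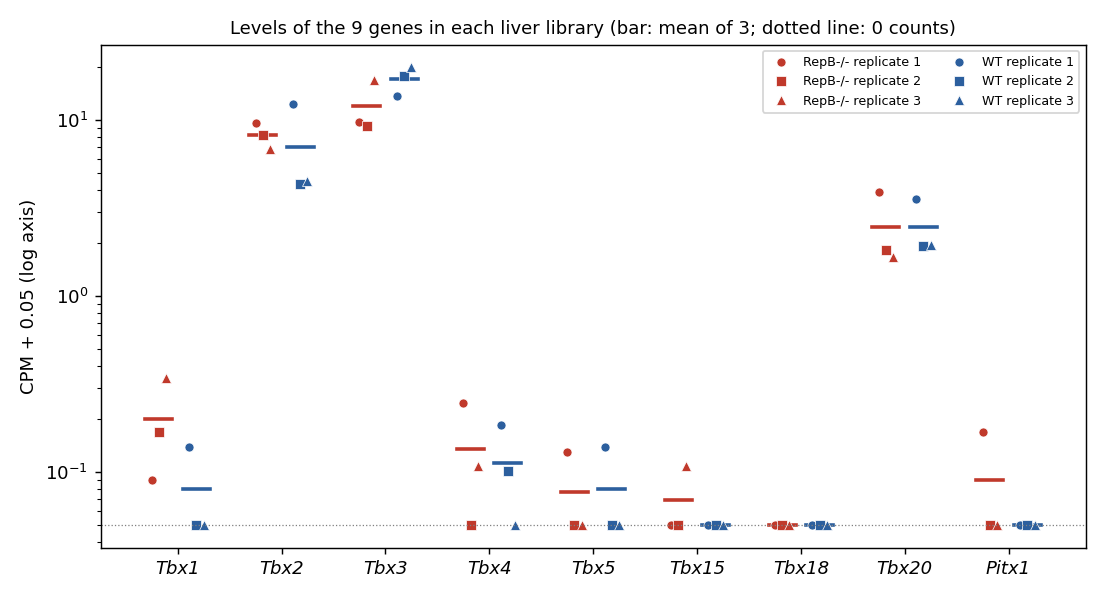
Level of each of the 9 genes in every liver library, drawn as for MEFs. Tbx2, Tbx3 and Tbx20 lie above 1 CPM with both genotypes overlapping, and the other 6 genes lie at 0.292 CPM or less.

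Per length, Tbx3 was the highest of the 9 in WT liver with 3.49 ± 0.50 FPKM (SD, n = 3), followed by Tbx2 with 1.92 ± 1.43 and Tbx20 with 0.26 ± 0.13, and Tbx3 and Tbx2 overlapped. Tbx3 and Tbx2 were thus read in both tissues, Tbx15, Tbx18 and Tbx4 in MEFs and at 0 to 10 counts in liver libraries, and Tbx20 in liver and at 0 to 13 counts in MEF libraries. Read here means passing the filter, which depends on depth and length. Tbx1, which did not pass in MEFs, had a mean of 0.26 FPKM in WT MEFs, beside 0.26 for Tbx20 in WT liver. The tables were made separately, so levels are set side by side without a test.

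The listed genes gave no calls in liver, with all 6 libraries, without the library labelled RepB-/- replicate 2 or in replicates 2 and 3 alone. Of the other T-box and Pitx genes 4 were tested, of limb bud genes 5, of partners 8 and of targets 5, and edgeR and DESeq2 each called 0 of them, with 0 at an unadjusted p under 0.05. In replicates 2 and 3 alone, 1 gene of each list had an unadjusted p under 0.05, namely Tbx6, Hand2, Tle1 and Ndrg1, with adjusted p of 0.41 to 0.46. Tbx6 had a log2 fold change of 1.34 (SE 0.61, adjusted p = 1.00), which was 0.93 without the library labelled RepB-/- replicate 2 and 1.78 in replicates 2 and 3 alone, Tbx21 of -0.88, Eomes of -0.35 and Mga of -0.18. The medians were -0.26, 0.13, -0.04 and 0.07 for the 4 lists in that order, beside 0.01 over all tested liver genes. In replicates 2 and 3 alone they were -0.18, -0.17, 0.03 and 0.06, and without the library labelled RepB-/- replicate 2 they were -0.26, 0.44, 0.04 and 0.14. Gata4, from whose MEF call nothing is read, was at 24.5 CPM in RepB-/- and 26.3 in WT livers.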

How the data were processed

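RNA-seq tables of MEFs and liver were used, 12 libraries in all. Brain libraries were not analysed here. Per the study's methods, Cutadapt was used for trimming and Hisat2 for alignment. The submitters' processing notes also name Trim Galore 0.4.1, STAR 2.7.0, HTSeq 0.12.4, DESeq2 and deepTools 3.5.0, without roles, and the tool that made the counts is not given in the sources used here. The deposited counts are whole numbers per gene without normalization. The deposited MEF FPKM values are counts scaled by length and library total. How the liver FPKM values were scaled was not checked, since lengths are given for MEFs only. The 6 other per-library columns, TPM of liver, were not used. The liver table had the spans of GENCODE vM21 (GRCm38) for 94.1% of shared genes. The MEF table did so for 2.29%, so its coordinates served only for distances.

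Counts were fitted per tissue by genotype with edgeR 4.0.16 in R 4.3.3 (TMM, filterByExpr, quasi-likelihood test) and Benjamini-Hochberg adjustment over all tested genes, with a threshold of 0.05. CPM are counts scaled by TMM-adjusted library size. The fit was tested on simulated data. Replicate pairs differed by more than counting noise. Same-numbered livers deviated together (correlations of 0.71, 0.36 and 0.37 after removing genotype means), and same-numbered MEF libraries did not (-0.011, -0.042 and -0.0035). Both replicate 1 livers stood apart, which moves replicates 2 and 3 of both genotypes the same way. By chi-square per gene, WT livers 2 and 3 differed by 58.0, and from replicate 1 by 552 and 578. RepB-/- livers 2 and 3 differed by 607, and from replicate 1 by 638 and 846. Correlations between livers of different numbers are not given, so pairing of replicates 2 and 3 is not shown.

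The genes and lists were chosen with earlier results of these data known, and some list genes are not reported here. Named were the 9 genes, each tested other T-box or Pitx gene, the called list genes with the largest changes (at most 4 per direction and list), tested genes within 500 kb of Tbx2 and Tbx4, the 5 genes closest to Tbx2 and Tbx4, and leading or absent markers. Rbm19, Gm11444, Tbx21, Cdkn2a, Gja1, Tnnt2, Msln, Myh3, Myod1, Myog, Adgre1, Cd68, Ptprc, Epcam and Hand2 were named after their values were seen. Alternatives were DESeq2 1.42.0, DESeq2 size factors within the edgeR fit, TMM factors from autosomes, no count filter, at least 1 CPM in 3 libraries, a replicate block, leaving out each library, liver fits for replicate 1 and without the library with Y-linked counts, a prior count of 0.5, 1 Mb, and a 1.5-fold threshold. Figures used matplotlib 3.10.9.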

Additional observations from a re-analysis of the deposited data

How the results depend on the processing

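In MEFs, Tbx2, Tbx3, Tbx4, Tbx15 and Tbx18 kept the sign of their log2 fold changes under all 12 alternatives, with ranges of -2.42 to -1.86, -1.12 to -0.88, 0.12 to 0.32, 0.03 to 0.16 and 0.16 to 0.31. MEF calls numbered 3956 to 5233 when a library was left out, against 5202. The MEF numbers were not shown to pair libraries, and a replicate block gave 5006 calls and -2.18 for Tbx2. Within 1 Mb in place of 500 kb, 33 of 104 tested neighbouring genes were called (31.7%), against 17 of 50 (34.0%), and around Tbx3 5 of 9 within 1 Mb were called, all lower. With at least 1.5-fold change, 3 limb bud, 3 partner and 2 target genes were called in MEFs, against 9, 6 and 3. The share of all tested genes at 1.5-fold was not computed.

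In liver, none of Tbx2, Tbx3 and Tbx20 passed the threshold under any of the 15 alternatives, with adjusted p from 0.45 to 1.00. The fit with a replicate block gave 0.39, -0.55 and -0.05 for the 3 genes and changed no call. The sign of Tbx2 turned without WT replicate 2 (-0.020) or 3 (-0.0089), over a leave-one-out range of -0.020 to 0.90. Tbx20 turned positive with DESeq2 (0.00996), its size factors (0.0081), TMM over autosomal genes (0.0022) and 1 CPM in 3 libraries (0.0035), and ranged from -0.51 to 0.36 when a library was left out, including 0.18 and 0.22 without RepB-/- replicate 2 or 3 and 0.36 without WT replicate 1. Liver calls over all genes, 6 in edgeR, were 8 with the replicate block, 9 with a term for replicate 1, 80 with DESeq2, 3 with TMM over autosomal genes, 0 without a filter, 2 in replicates 2 and 3 alone, 0 with the replicate block without RepB-/- replicate 2, and 0 to 4 when a library was left out. At an unadjusted p under 0.05 there were 502 liver genes. The liver list calls, 0 in each case, were also run without RepB-/- replicate 2 and in replicates 2 and 3 alone, alternatives chosen after seeing the data. The causes were not tested. Depth limits Tbx1, Tbx5, Tbx20 and Pitx1 in MEFs and 6 of the 9 genes in liver.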
